A study of Mus musculus with 8 samples.

Results

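The genes described here encode the receptors through which TNSST neurons, the somatostatin (SST) neurons of the lateral tuberal nucleus (TN), could sense glutamate, together with the small membrane proteins that ride along with these receptors. The set was chosen by name and holds 38 of the 35968 genes to which the deposited transcripts could be assigned. It comprises 4 AMPA, 7 NMDA, 5 kainate and 1 delta receptor subunit genes, 7 metabotropic receptor genes and 14 genes of auxiliary subunits.

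RNA was sequenced from tdTomato-labeled cells of 4 female and 4 male mice, with 1 library per mouse. Every mouse was adult, heterozygous for the Cre allele at the *Sst* locus (genotype Ssttm2.1(cre)Zjh/J / +) and on a C57BL/6J background, and had received AAV2-flex-tdTomato in the TN at least 2 weeks earlier. Females were cycling, with no estrous stage given for these libraries, and males were gonad-intact. Dissociated cells were sorted as live, nucleated and brightly red, and RNA was taken from the sorted cells of each mouse separately. The virus is recombined in cells of the injected area that hold Cre at or after the injection, the gate selected on tdTomato and not on *Sst* itself, and each library pools all sorted cells of a mouse.

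AMPA, NMDA and kainate receptors are tetrameric channels that glutamate opens, NMDA receptors together with a co-agonist, and delta receptors are related proteins that glutamate does not open. Among the channels, AMPA receptors carry the fast part of an excitatory current and NMDA receptors the slow, calcium-rich part. Metabotropic receptors act through G proteins: group I is mostly postsynaptic and excitatory, and groups II and III mostly lower transmitter release. Auxiliary subunits set how many channels reach the synapse and how quickly they close. In the hypothalamus, glutamate is the main fast excitatory transmitter onto feeding neurons.

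Values are given on 2 scales, and values by mouse follow the mouse numbers 1 to 4 within each sex. Levels of different genes are compared as transcripts-per-million values (TPM), which corrects for transcript length, and the sexes are compared as counts-per-million values (CPM), scaled between libraries. Libraries held between 7.79 and 17.5 estimated counts in units of 1000000, and a count of 3, taken as the limit of detection, equals 0.148 to 0.458 CPM, which covers counting error only. *Sst* reached 898 to 1883 TPM, and the 3 GABA markers (*Gad1*, *Gad2*, *Slc32a1*) summed to 344 to 669.8 TPM. Markers of glutamatergic neurons were present too. The 3 of them (*Slc17a6*, *Slc17a7*, *Slc17a8*) summed to 101.6 to 153.8 TPM in the females and 51.4 to 99.5 TPM in the males. Of these, *Slc17a7*, the vesicular glutamate transporter of cortical neurons, was at 0 in 7 of 8 mice. The 5 markers of ventromedial nucleus neurons summed to 64.3 to 189.0 TPM in the females and 27.1 to 93.9 TPM in the males. Glial markers were also present. The 5 microglial markers summed to 180.0 to 1048 TPM in the females and 389.7 to 1889 TPM in the males, and the 4 oligodendrocyte markers to 282 to 1341 and 463 to 1194 TPM. No batch is named for these libraries, and p-values set the difference between the sexes against the spread between mice.

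Of the 38 genes, 36 were expressed strongly enough to be tested between the sexes. *Grm6*, the metabotropic receptor of retinal bipolar cells, had 0 to 5 counts per mouse, and *Grin3b*, a glycine-binding NMDA subunit, 4 to 12 counts. Together the 38 genes summed to 1691, 1780, 2446 and 2042 TPM in the females and to 1622, 1276, 1567 and 1449 TPM in the males.

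The AMPA receptor was the most abundant channel family, with a summed level of 499.9 to 708 TPM in the females and 344 to 466 TPM in the males. Its leading subunit was *Gria2*, whose edited form keeps calcium out of the channel. *Gria2* stood at 223, 227, 358 and 287 TPM in the females and at 212, 161, 201 and 194 TPM in the males. *Gria1*, the subunit most tied to activity-driven insertion, averaged 162 TPM and lay below *Gria2* in 8 of 8 mice by all transcripts, although the ranges of both genes over mice overlapped. *Gria4* followed with a mean of 60.0 TPM and *Gria3* with 44.9 TPM, *Gria4* being the higher of the pair in 7 of 8 mice. As a share of the family's TPM, *Gria2* took 44.6% to 50.6%, *Gria1* 29.5% to 36.2%, *Gria4* 9.68% to 14.7% and *Gria3* 7.14% to 10.3%. When only protein-coding transcripts were counted, the means were close (150.0 TPM for *Gria2* and 145 for *Gria1*) and the order turned in female 4 (160.4 against 174 TPM) and male 4 (106.8 against 128 TPM).

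Each AMPA subunit gene carries a pair of mutually exclusive exons, flip and flop, that encode the same stretch beside the ligand-binding site. Channels with flop generally close faster and flip channels respond more to some auxiliary subunits. The exons are shown for *Gria1* and *Gria2*, the 2 leading subunits, since the bases at which they differ are what tells the forms apart within these exons. In mm10, the *Gria1* flip exon lies at chr11:57310608-57310722 and the flop exon at chr11:57309769-57309883 on the + strand, and the *Gria2* flip exon at chr3:80690404-80690518 and the flop exon at chr3:80691320-80691434 on the - strand. All are coding. Sequences are 5′ to 3′ in the direction of transcription, and capitals mark the bases at which flip and flop of the same gene differ.

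*Gria1* flip: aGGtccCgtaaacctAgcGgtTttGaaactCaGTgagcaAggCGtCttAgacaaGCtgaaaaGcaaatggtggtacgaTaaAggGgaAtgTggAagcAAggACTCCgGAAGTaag
*Gria1* flop: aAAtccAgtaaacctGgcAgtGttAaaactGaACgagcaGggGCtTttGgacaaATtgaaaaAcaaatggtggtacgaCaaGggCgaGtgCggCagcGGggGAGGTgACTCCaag
*Gria2* flip: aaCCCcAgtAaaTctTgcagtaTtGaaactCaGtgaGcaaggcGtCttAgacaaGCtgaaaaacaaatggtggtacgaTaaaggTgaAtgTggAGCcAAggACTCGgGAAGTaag
*Gria2* flop: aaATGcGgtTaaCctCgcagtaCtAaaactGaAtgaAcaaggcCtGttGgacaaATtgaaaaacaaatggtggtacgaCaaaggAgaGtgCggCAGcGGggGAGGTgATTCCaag

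Flip and flop were of equal length in each gene and differed at 36 bases in *Gria1* and at 36 in *Gria2*, which leaves 68.7% of the bases identical. Among protein-coding transcripts, the flip share of flip plus flop TPM was 44.1%, 48.3%, 35.0% and 37.7% for *Gria1* in the females and 44.5%, 45.8%, 33.3% and 31.4% in the males. *Gria2* was far more flip, with 93.1%, 92.1%, 91.6% and 92.1% in the females and 92.2%, 92.8%, 93.0% and 93.3% in the males. Flip thus held the larger part of *Gria2* and the smaller part of *Gria1* in each of the 8 mice. The *Gria2* value carries a limit of the annotation: its flip transcript has 4026 bases and its flop transcript 10371, so the reads that separate them include those of the longer 3′ end. *Gria3* had a mean flip share of 56.6%, with 81.3% in female 1 and 40.4% to 46.4% in the other females against 56.4% to 67.3% in the males. *Gria4* ranged from 19.0% to 82.1%, and 64.8% of its TPM came from a short coding transcript with neither exon. These shares are estimates of transcript assignment and were not tested between the sexes.

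**Figure D1:**
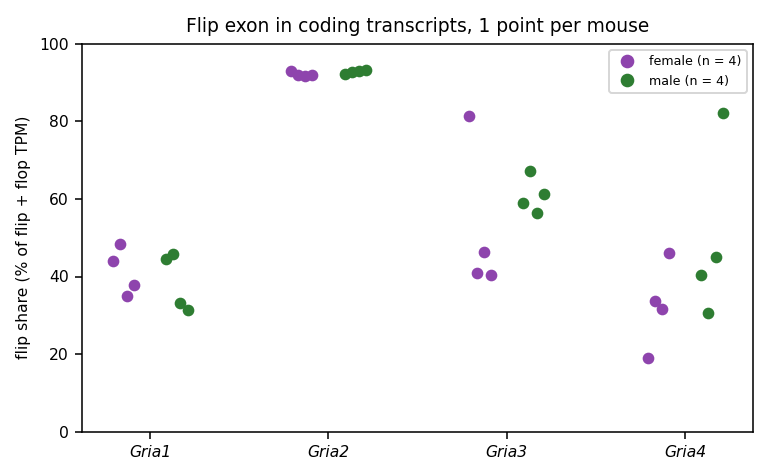
Share of the flip exon in coding transcripts of the 4 AMPA subunit genes, in percent of flip plus flop TPM, with 1 point per mouse (females purple, males green). *Gria2* lies between 91.6% and 93.3% in every mouse and *Gria1* between 31.4% and 48.3%, while *Gria3* and *Gria4* spread widely.

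NMDA receptors pair the obligate subunit *Grin1* with *Grin2* or *Grin3* subunits. *Grin1* was at 172, 189, 254 and 236 TPM in the females and at 172, 136, 158 and 134 TPM in the males. *Grin2b*, which gives slow channels and prevails early in development, was the main partner at a mean of 103 TPM (range 48.5 to 185). *Grin3a*, whose channels pass less calcium, followed at 26.0 TPM and exceeded *Grin2d* (13.5 TPM) and *Grin2a* (11.2 TPM) without overlap of the ranges. *Grin2a*, the fast partner typical of mature cortex, thus lay below *Grin2b* and *Grin3a* in all 8 mice. *Grin2c* was near the bottom at 0.864 to 3.47 TPM. The *Grin2b* level depends on how it is counted, because a noncoding transcript of 241 bases held 37.3% of its TPM from 0.272% of its counts. Coding transcripts alone gave *Grin2b* 64.8 TPM and the same order of the 7 genes.

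The *Grin1* transcripts differ by 2 cassette exons with known effects, an early one that makes the receptor less sensitive to protons and a late one that carries a signal for retention in the endoplasmic reticulum. Transcripts with the early exon took 2.38% of coding *Grin1* TPM on average (0% to 9.24% per mouse), and those with the late exon 72.3% (58.2% to 85.2%). By mouse, the late exon was in 85.2%, 68.0%, 77.2% and 79.0% in the females and in 69.7%, 67.5%, 73.5% and 58.2% in the males, so the sexes overlapped. In every mouse the form with the late exon prevailed and the form with the early exon was rare.

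Among kainate receptor genes, *Grik5*, a high-affinity subunit that needs a partner to form a channel, had the highest level by all transcripts, with 144, 129, 154 and 166 TPM in the females and 144, 110.2, 121 and 105 TPM in the males. This rank rested on noncoding transcripts, since only 17.2% of the *Grik5* TPM was coding. A transcript of 455 bases alone gave 44.9% of it from 6.40% of the counts. With coding transcripts alone the order was *Grik2* (53.5 TPM), *Grik3* (29.5), *Grik5* (23.1), *Grik1* (11.7) and *Grik4* (11.2), so that the channel-forming *Grik2* led. The delta subunit gene *Grid1*, whose product binds synaptic organizers rather than glutamate, was at 27.6, 26.7, 28.7 and 29.4 TPM in the females and at 36.6, 29.3, 29.8 and 24.8 TPM in the males.

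*Grm5* and *Grm7* had the highest means of the metabotropic receptor genes and did not separate. *Grm5*, the group I receptor coupled to calcium release from stores, was at 49.98, 66.8, 90.1 and 55.3 TPM in the females and 43.7, 31.5, 49.7 and 43.1 TPM in the males. *Grm7*, a low-affinity group III receptor of release sites, was at 44.3, 53.9, 79.3 and 59.0 TPM in the females and 39.7, 29.2, 39.3 and 45.6 TPM in the males. *Grm7* exceeded *Grm5* in female 4 and male 4, and from coding transcripts alone the means were 45.4 TPM for *Grm7* and 44.7 TPM for *Grm5*. A relative of *Grm7*, *Grm8*, averaged 31.3 TPM and *Grm4* 7.04 TPM. Group II was sparse. *Grm3*, which astrocytes also express, was at 11.4, 9.05, 6.73 and 9.23 TPM in the females and 6.92, 10.9, 8.93 and 9.29 TPM in the males, and *Grm2* averaged 1.72 TPM.

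Auxiliary subunits summed to 456 to 673 TPM in the females and 375 to 450.2 TPM in the males. The transmembrane AMPA receptor regulatory proteins (TARPs) bring AMPA receptors to the synapse and slow their closing. *Cacng4*, a type I TARP, led them with 51.4, 60.4, 79.7 and 62.7 TPM in the females and 51.4, 60.6, 73.9 and 90.4 TPM in the males. *Cacng3* (mean 40.0 TPM), *Cacng8* (23.8) and *Cacng2*, the stargazin gene (17.5), followed in that order with overlapping ranges between neighbours. The type II TARP *Cacng7* had 14.0, 14.7, 19.5 and 13.8 TPM in the females and 14.97, 17.2, 13.3 and 13.6 TPM in the males, and its relative *Cacng5* averaged 12.3 TPM. They did not separate, since *Cacng7* exceeded *Cacng5* in 5 of 8 mice.

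The cornichon *Cnih2*, which helps AMPA receptors leave the endoplasmic reticulum and slows them, was the auxiliary gene with the highest level, at 86.4, 86.0, 114.5 and 98.1 TPM in the females and 87.6, 68.5, 92.2 and 91.1 TPM in the males. Its relative *Cnih3* averaged 18.2 TPM without overlap. The Shisa proteins include regulators of AMPA receptor desensitization. Among their genes, *Shisa7* had 49.6, 46.0, 88.3 and 49.2 TPM in the females and 32.8, 39.3, 38.3 and 29.3 TPM in the males. *Shisa9* (38.7 TPM) and *Shisa6* (12.1 TPM) followed. *Gsg1l*, a negative regulator of AMPA receptors, had 8.76, 9.76, 16.3 and 10.5 TPM in the females and 6.94, 8.11, 8.37 and 7.16 TPM in the males. The kainate receptor partner *Neto1* had 36.6, 43.8, 53.8 and 65.8 TPM in the females and 33.4, 30.7, 35.0 and 28.8 TPM in the males, and *Neto2* averaged 39.5 TPM. Of the *Neto1* TPM, 67.1% came from a noncoding transcript of 384 bases, and coding transcripts alone put *Neto2* (23.8 TPM) above *Neto1* (13.5 TPM).

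**Figure D2:**
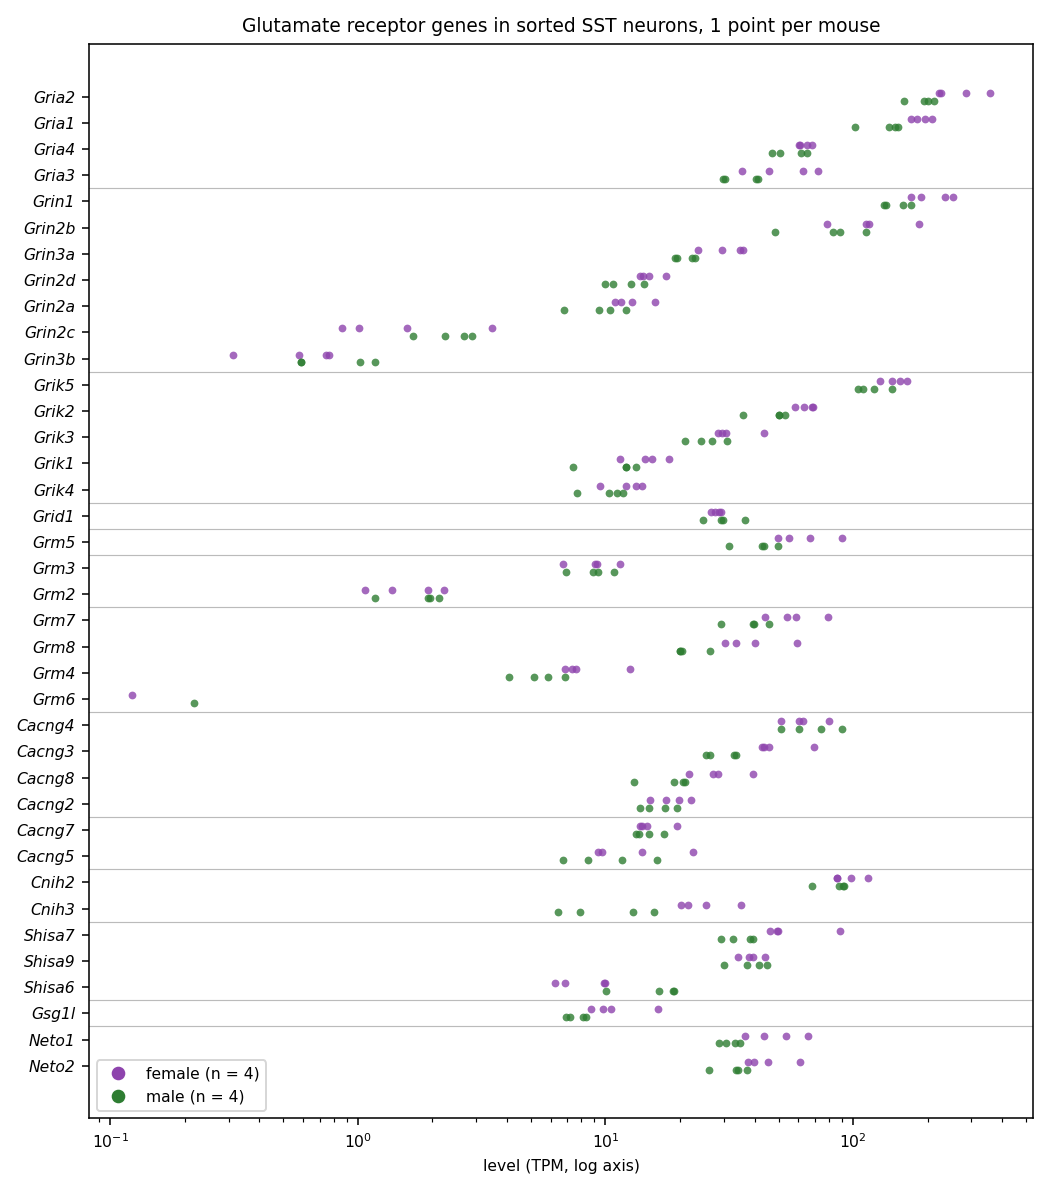
Level of each of the 38 genes in TPM on a log axis, with 1 point per mouse (females purple, males green) and families separated by lines. *Gria2*, *Grin1*, *Gria1* and *Grik5* sit on the right above 100 TPM in every mouse, *Grin2c*, *Grin3b* and *Grm2* below 3.5 TPM, and the 6 mice at 0 for *Grm6* are not drawn.

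The design asks which of these genes differ between females and males. Every female lay above every male in 14 of the 36 genes tested, against 6.48% of all genes, and below every male in 0, against 3.94%. The 12 of these 14 with the smallest unadjusted p in edgeR are given by mouse. None reached an adjusted p under 0.05. *Cnih3* (chromosome 1, 181352628 to 181460641, + strand, mm10) had 30.5, 29.6, 41.9 and 31.8 CPM in the females and 15.7, 12.2, 19.2 and 9.95 CPM in the males. Its lowest female lay above its highest male. The female mean was 33.5 ± 5.72 CPM and the male mean 14.3 ± 4.06 CPM (SD, n = 4 mice each), which corresponds to a log2 fold change of 1.23 with a standard error of 0.210 and an adjusted p of 0.0655 (quasi-likelihood test in edgeR, Benjamini-Hochberg over all genes).

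*Shisa7* (chromosome 7, 4825552 to 4844696, - strand) had 125, 133, 209.9 and 136 CPM in the females and 83.1, 84.0, 91.2 and 87.2 CPM in the males. Female 3 stood above the others and males were tightly grouped, with no overlap. The log2 fold change was 0.81 with a standard error of 0.156 (edgeR adjusted p = 0.0690), and 0.60 without female 3. The promoters of *Cnih3* and *Shisa7* are shown because these auxiliary genes had the largest differences. They span 250 bases before to 50 after the start in RefSeq (GRCm38.p6), at chr1:181352378-181352677 on the + strand and chr7:4844647-4844946 on the - strand. Capitals mark the GC box, GGGCGG on either strand.

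*Cnih3* promoter: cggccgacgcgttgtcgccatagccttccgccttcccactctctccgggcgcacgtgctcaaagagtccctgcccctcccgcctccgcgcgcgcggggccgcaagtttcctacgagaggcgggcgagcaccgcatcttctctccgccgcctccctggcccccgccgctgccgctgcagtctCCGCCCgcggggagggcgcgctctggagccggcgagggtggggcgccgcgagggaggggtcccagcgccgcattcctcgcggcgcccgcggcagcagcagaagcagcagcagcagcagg
*Shisa7* promoter: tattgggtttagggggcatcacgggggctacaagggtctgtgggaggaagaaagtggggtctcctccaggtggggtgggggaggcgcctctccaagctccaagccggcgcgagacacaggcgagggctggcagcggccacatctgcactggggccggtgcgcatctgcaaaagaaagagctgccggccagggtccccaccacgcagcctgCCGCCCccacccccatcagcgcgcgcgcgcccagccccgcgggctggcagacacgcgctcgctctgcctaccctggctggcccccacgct

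RefSeq promoters were at hand for 24 of the 38 genes, 29 in all. At least 1 GC box, which Sp1-type factors bind, was found in 16 of the 29, against 35.6% of all 32817 promoters of the same length, and the median GC content was 63.3% against 52.7%. The motif GGTCA, an arm of the palindromic estrogen response element, was in 8 of 29 against 40.5%, and the full element (GGTCANNNTGACC) in 0 against 0.0701%. The cyclic AMP element TGACGTCA was in 0 of 29 against 1.79%, and TATAAA in 1, that of *Grin3b*, against 13.6%. All motifs were searched on both strands, some windows of the same gene overlap, and a match describes letters only.

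The NMDA receptor genes among the 12 were *Grin2b*, *Grin3a* and *Grin1*. *Grin2b* (chromosome 6, 135713233 to 136173511, - strand) had 677, 610.4, 737 and 693 CPM in the females and 494, 289, 469 and 323 CPM in the males, or 0.79 on the log2 scale with a standard error of 0.169 (edgeR adjusted p = 0.0797). *Grin3a* had 119.6, 97.3, 123 and 137 CPM in the females and 86.7, 77.5, 94.8 and 82.0 CPM in the males, which is 0.49 higher in females on the log2 scale. Here the gap was narrow, 97.3 CPM in the lowest female against 94.8 in the highest male. *Grin1* had 318, 370.1, 439 and 381 CPM in the females and 301, 257, 285 and 277 CPM in the males, which is 0.43 higher in females on the log2 scale. *Grin2b* carried the largest of the 3 differences, and its 4 males were also the most spread (male SD 103 CPM).

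Among metabotropic receptors, *Grm8* (chromosome 6, 27275119 to 28135178, - strand) had 40.3, 45.4, 50.3 and 52.2 CPM in the females and 32.8, 28.6, 33.9 and 28.8 CPM in the males, or 0.60 on the log2 scale with a standard error of 0.114 (edgeR adjusted p = 0.0690). *Grm7* had 82.9, 93.9, 130.4 and 99.96 CPM in the females and 69.1, 55.4, 66.0 and 74.7 CPM in the males, which is 0.62 higher in females on the log2 scale. Both encode presynaptic group III receptors. *Grm5* had 154, 203, 210.3 and 167 CPM in the females and 124, 104, 148 and 126 CPM in the males, which is 0.55 higher in females on the log2 scale. The lowest female and the highest male differed by few CPM in *Grm5*, and more clearly in *Grm8*.

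The AMPA subunits *Gria2* and *Gria1* had smaller log2 fold changes. *Gria2* had 524, 576, 709 and 618 CPM in the females and 497, 389, 471 and 421 CPM in the males (log2 fold change 0.45). *Gria1* had 458, 482, 545 and 515 CPM in the females and 429, 326, 399.8 and 406 CPM in the males (log2 fold change 0.36). Of the auxiliary genes, *Neto1* had 57.4, 67.4, 84.8 and 70.7 CPM in the females and 47.5, 44.3, 52.4 and 48.5 CPM in the males (log2 fold change 0.54). The TARP *Cacng3* had 31.2, 32.5, 42.5 and 28.3 CPM in the females and 22.4, 22.0, 25.8 and 19.5 CPM in the males (log2 fold change 0.58). In each of these 4 genes the sexes were separate. For the 12 genes the adjusted p in edgeR lay between 0.0655 for *Cnih3* and 0.119 for *Gria1*.

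**Figure D3:**
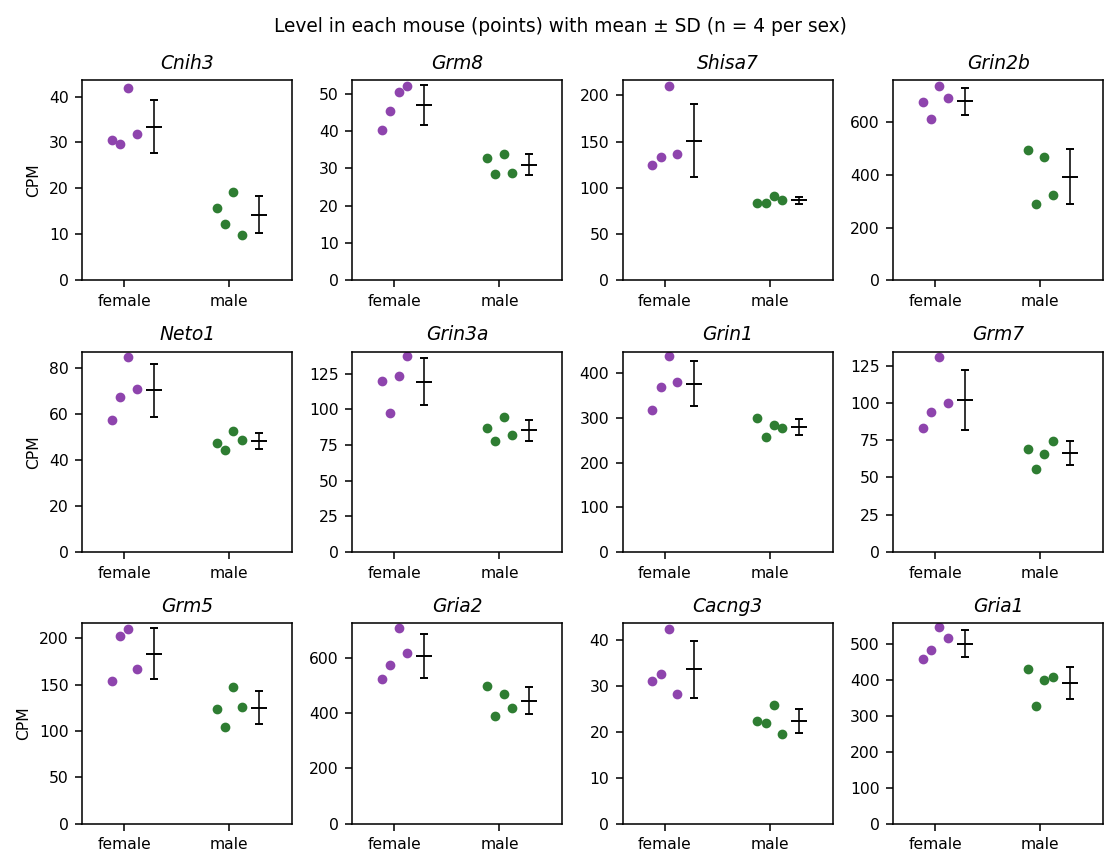
CPM of the 12 genes named for their separation of the sexes, with 1 point per mouse and the mean ± SD of 4 mice beside the points, each axis starting at 0. The genes were chosen so that every female lies above every male in each panel. The relative gap is widest in *Cnih3* (29.6 against 19.2 CPM) and narrow in *Grin3a* and *Grm5*.

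Over the whole set, 29 of the 36 genes tested had a positive log2 fold change (female over male) and 7 a negative one, with a median of 0.35 against a median of -0.0043 over all 15194 genes. In edgeR, 0 of the 36 were higher in females at an adjusted p under 0.05, where 0.112% of all genes were, and 0 were lower, where 0.0461% were. At an unadjusted p under 0.05, 19 were higher, against 9.86% of all genes, and 0 lower, against 10.7%. Every female lay above every male in 14, against 6.48% of all genes, and below every male in 0, against 3.94%. At an adjusted p under 0.1, a looser line than the one used here, 9 of the 36 were higher in females, against 1.88% of all genes. DESeq2, the tool the study used, called 14 of these genes higher in females, against 4.31% of all genes, and 0 lower, against 3.6%. Those 14 were *Gria1*, *Gria2*, *Grin1*, *Grin2a*, *Grin2b*, *Grin3a*, *Grik2*, *Grm5*, *Grm7*, *Grm8*, *Cacng3*, *Cnih3*, *Shisa7* and *Neto1*, with adjusted p-values from 1.97e-05 for *Cnih3* to 0.0387 for *Grik2*. The 36 genes share their mice and are not independent of each other.

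By role, the median was positive in each class of genes in the edgeR fit without covariates, and the classes were not tested against each other. The 16 ionotropic genes tested had a median log2 fold change of 0.33, with 8 higher in females at an unadjusted p under 0.05, against 9.86% of all genes, and the 6 metabotropic genes a median of 0.55, with 4. The 14 auxiliary genes had a median of 0.30, with 7, but a range from -0.45 to 1.23. All 5 kainate genes had positive values between 0.20 and 0.44 in that fit. *Grik2*, the channel-forming subunit, was the only 1 of them at an unadjusted p under 0.05. *Gria4* had a value of 0.05, from a female mean of 116 ± 4.20 CPM and a male mean of 112 ± 12.8 CPM (SD, n = 4 each).

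The genes with negative values were *Grin2c* (-0.54), *Shisa6* (-0.45), *Grid1* (-0.23), *Cacng4* (-0.12), *Shisa9* (-0.06), *Grm3* (-0.05) and *Cacng7* (-0.01), all with overlapping sexes. None reached an unadjusted p under 0.05. *Shisa6*, a brake on AMPA receptor desensitization, came nearest with 12.2 ± 2.54 CPM in females, against 16.5 ± 3.68 CPM for males (unadjusted p = 0.0618, adjusted 0.263, both from the edgeR fit). The *Grid1* means were 84.7 ± 6.33 CPM for females and 99.2 ± 15.6 CPM for males. Within families, *Shisa7* and *Shisa6* therefore had values of opposite sign, as did *Cacng3* and *Cacng4*.

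General neuronal markers had positive log2 fold changes, 6 of 6, with 0 of 6 past an adjusted p under 0.05 in edgeR, 3 higher in females at an unadjusted p under 0.05 (9.86% of all genes) and 3 called higher by DESeq2 (4.31% of all genes). They (*Snap25*, *Syt1*, *Rbfox3*, *Tubb3*, *Stmn2*, *Elavl4*) summed to 1480 to 2092 TPM in the females and 1097 to 1418 TPM in the males, with a median log2 fold change of 0.31, and every marker of astrocytes, oligodendrocytes, their precursors and microglia had a negative value. In bulk RNA, more cells of a type and more RNA per cell cannot be told apart. Set against the neuronal markers, the summed TPM of the 38 genes was 114%, 111.3%, 117% and 121% of the marker sum in the females and 114%, 116%, 120% and 124% in the males. On that footing the sexes overlapped, at 116% ± 3.97 and 119% ± 4.12 (SD, n = 4 each). *Grid1* was the exception among families, at 1.37% to 1.86% in the females and 2.12% to 2.67% in the males.

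With the mean of the neuronal markers as a covariate in edgeR, the median log2 fold change of the 36 genes was 0.10, against 0.01 over all genes. Of the 36, 1 was higher in females at an unadjusted p under 0.05, against 5.25% of all genes, and 2 were lower, against 2.6%. The first was *Grm3* (0.75), and the others were *Grid1* (-0.46) and *Shisa6* (-0.78). *Cnih3* kept the largest value among the 12 genes, at 0.68 (unadjusted p = 0.0573 from the edgeR quasi-likelihood test), and *Shisa7* had 0.53, whereas *Gria2* and *Gria1* were at 0.06 and 0.08. By role, the medians with the covariate were 0.07 for ionotropic, 0.31 for metabotropic and -0.04 for auxiliary genes. Among ionotropic families they were -0.02 for AMPA, 0.21 for NMDA and -0.09 for kainate genes. The covariate itself differs between the sexes, so this fit and the first are given side by side.

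**Figure D4:**
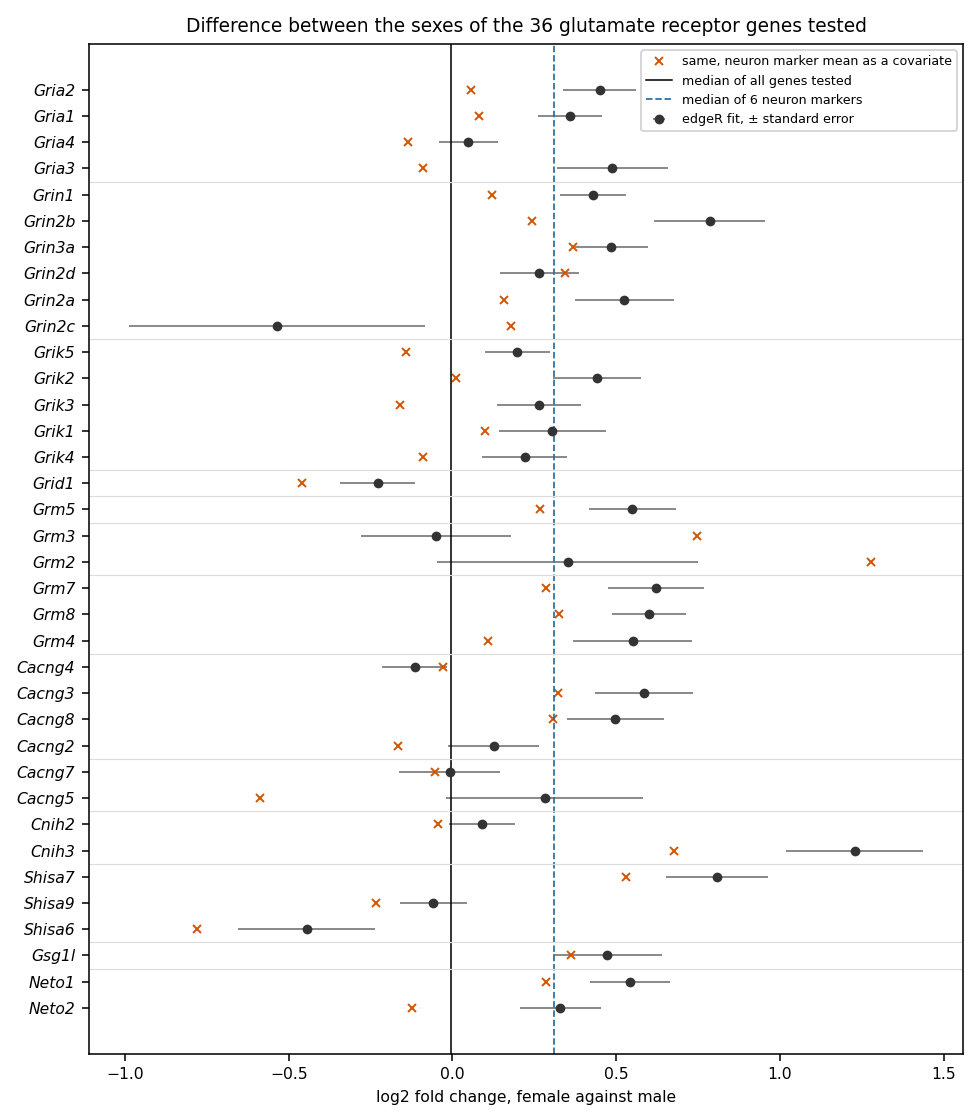
Log2 fold change (female over male) of the 36 genes tested, as edgeR fit ± standard error (black points) and with the neuronal marker mean as a covariate (orange crosses). The solid line is the median of all genes tested and the dashed line that of the 6 neuronal markers (0.31), and most black points lie near the dashed line or to its right, with *Cnih3* farthest at 1.23.

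**Figure D5:**
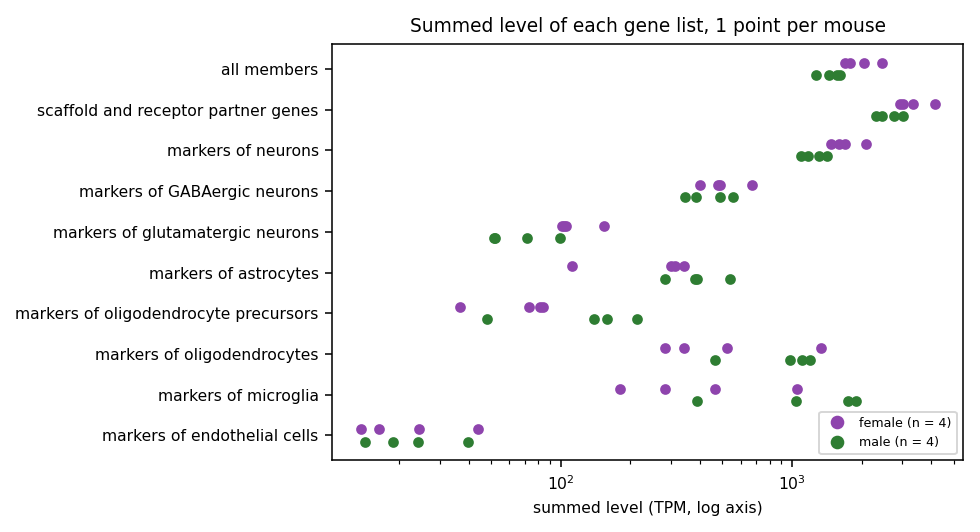
Summed TPM of the 38 glutamate receptor genes, of 31 scaffold and partner genes and of cell type marker lists on a log axis, with 1 point per mouse (females purple, males green). In the sums of the 38 genes, the neuronal markers and, narrowly (101.6 against 99.5 TPM), the glutamatergic markers each female exceeds each male. The 2 glutamatergic markers tested singly had log2 fold changes of opposite sign (-0.78 and 0.54). The scaffold, GABAergic, glial and endothelial lists overlap.

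Subunit makeup within a mouse was compared as 4 shares, each by an exact permutation test over mice (2-sided, smallest possible p = 0.0286). The *Gria2* share of AMPA subunit TPM was 46.8% ± 2.80 in females and 45.9% ± 0.860 in males (SD, n = 4 each, exact p = 0.714). The *Grin2b* share of *Grin2* TPM was 79.7% ± 4.44 and 76.3% ± 9.05 (exact p = 0.629), that of *Grik4* and *Grik5* in kainate TPM 58.8% ± 1.94 and 60.6% ± 1.59 (exact p = 0.200), and that of type II genes in TARP TPM 15.2% ± 1.49 and 16.2% ± 3.42 (exact p = 0.714). After Benjamini-Hochberg adjustment over the 4 shares, each exact p was 0.714. Computed from CPM, not per length, the differences (female minus male) were 2.04 percentage points for *Gria2*, 4.48 for *Grin2b* and -2.21 for *Grik4* and *Grik5*, each with an adjusted exact p of 0.0762. From coding transcripts alone, the *Grin2b* share was 77.3%, 78.3%, 77.3% and 75.1% in the females and 73.0%, 55.8%, 72.7% and 63.7% in the males, so that the sexes were separate, with an adjusted exact p of 0.114. The share of *Grik4* and *Grik5* on that basis was 26.3% ± 2.56 and 27.0% ± 4.34.

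Genes that hold these receptors in place were taken as a list of 31 scaffold and partner genes, including the *Dlg*, *Dlgap*, *Shank* and *Homer* families. In edgeR 0 of the 31 passed an adjusted p of 0.05, 16 were higher at an unadjusted p under 0.05, against 9.86% of all genes, and 1 was lower (*Homer3*), against 10.7%, and the median log2 fold change was 0.26. DESeq2 called 9 higher, against 4.31% of all genes. The smallest p-values belonged to *Prrt2*, an AMPA receptor complex and release protein, at 138 ± 18.4 CPM for females and 84.3 ± 12.8 CPM for males (log2 fold change 0.71), and *Nptx1*, a secreted pentraxin that clusters AMPA receptors, with 129 ± 18.1 and 80.2 ± 11.7 CPM (0.69). *Nsf*, the fusion ATPase that binds *Gria2* protein, followed at 0.52, and the postsynaptic scaffolds *Shank1* and *Dlgap1* at 0.31 and 0.41. The adjusted p of these 5 genes in edgeR ran from 0.0690 to 0.113. The sexes were separate in all 5, which were picked by smallest p. Over the list, every female lay above every male in 9 of the 31, against 6.48% of all genes. Every female lay below every male in 0, against 3.94%. Relative to the neuronal markers, the summed TPM of the list was 195% ± 4.78 in females and 211% ± 2.15 in males (SD, n = 4 each), with every female below every male, while the sexes overlapped for the receptor genes.

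In edgeR, whether any of the receptor genes passed depended on single mice, while DESeq2 called 14 with all 8 mice. Without female 1, 8 of them were higher in females at an adjusted p under 0.05 in edgeR (*Cnih3*, *Grik2*, *Grin1*, *Grm5*, *Grm7*, *Grm8*, *Neto1* and *Shisa7*), where 1.4% of all genes were. Without male 1 there were 3 (*Cnih3*, *Grin2b* and *Grm8*), against 1.46% of all genes, and without female 3 there was 1 (*Shisa7*), against 0.0517%. Leaving out any other mouse gave 0. Female 1 had the highest microglial marker sum of the females (1048 TPM) and male 1 the lowest of the males (389.7 TPM), and the part of these markers in the calls was not tested. The log2 fold change of *Cnih3* stayed between 1.09 and 1.40 over these fits, that of *Grin2b* between 0.66 and 0.92 and that of *Grm8* between 0.54 and 0.67.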

How the data were processed

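Flow-Seq was done on sorted TNSST neurons of 4 females and 4 males. The authors assigned single-end reads to mm10 transcripts with kallisto 0.46.2 and deposited estimated counts, which are not normalized, and TPM, scaled to transcript length. Each mouse came as 2 blocks of the same transcripts. Counts of both were summed and TPM averaged, since the deposited TPM sums to 1000000 in each block.

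Of 118489 transcripts, 116728 were joined to GENCODE M21 genes, leaving out 0.429% to 0.611% of counts. Counts per gene were rounded and compared in R 4.3.3 with edgeR 4.0.16 (TMM, default filter on low counts, quasi-likelihood fit, calls at a Benjamini-Hochberg adjusted p under 0.05 over all genes). Alternatives were DESeq2 1.42.0 (the tool named by the study, there given by its Galaxy version 2.11.40.6), other scaling and filters, a replicate block, coding transcripts, a neuronal covariate, library sizes without *Lars2*, single blocks (chosen after seeing the data), and each mouse left out. Fits were tested on simulated data. Python 3.11.15 gave exact permutation tests and figures.

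The genes, lists and tests were chosen with earlier results of these data known. Values by mouse are given for up to 12 genes with separate sexes and the smallest p, for the highest gene of each family, and summarized for the 6 scaffold genes of smallest p. The values of 1 scaffold and partner gene are not reported here, and it stayed in the counts of its list.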

Additional observations from a re-analysis of the deposited data

Results flagged for a closer look

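Of 80 groups of 4 mice checked for a value far from the others, 3 passed, where about 1 in 20 does so by chance. *Grik1*, a kainate receptor subunit gene, was low in male 2, at 15.76 CPM against 23.7 to 24.3 CPM in the other males. *Shisa7* was high in female 3, at 209.9 CPM against 125 to 136 CPM in the other females, and without this mouse its log2 fold change was 0.60 in place of 0.81. The *Grin2b* share of *Grin2* TPM was low in male 2, at 62.88% against 79.1% to 82.0% in the other males. Male 2 also had the highest microglial marker sum (1889 TPM), and female 3 the largest library (17.5 in units of 1000000 counts) and the lowest microglial sum (180.0 TPM), and the part of either in these values was not tested.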

How the results depend on the processing

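Each mouse gave 1 library, and TPM of genes with short noncoding transcripts (*Grik5*, *Neto1*, *Grin2b*, *Shisa6*) rests on few counts. Genes differing between the sexes numbered 24, and DESeq2 gave 1014, the replicate block 1, the neuronal covariate 2 and the fits without a mouse 8 to 415. Receptor genes higher in females went from 0 to 14 in DESeq2 and to between 0 and 8 without a mouse, and scaffold genes to 9 and to between 0 and 4. The covariate took the receptor genes at an unadjusted p under 0.05 and higher in females from 19 to 1 and their median to 0.1042. Deviations of same-numbered mice had correlations from -0.396 to 0.0719, and those of other pairs ran from -0.268 to 0.416. With 4 same-numbered pairs, these values cannot settle whether the numbers pair the mice. The block fit called 0 receptor genes, as the main fit did. The adjusted p of *Cnih3* in the edgeR quasi-likelihood test was 0.0655 without the block and 0.144 with it.

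The 19 genes with TPM or CPM given by mouse were followed over 18 alternatives. Of these 342 values, 308 kept direction and side of the threshold and 11 changed sign. Another 23 passed the threshold only under the alternative (12 in DESeq2, 11 without a mouse). Of the followed genes, *Grik5* (-0.1417), *Cnih2* (-0.04489) and *Grm3* (0.7476) changed sign under the covariate. Tested genes that were not followed changed sign there too. These were *Gria3* (-0.09), *Gria4* (-0.14), *Grik3* (-0.16), *Grik4* (-0.09), *Cacng2* (-0.17), *Cacng5* (-0.59), *Neto2* (-0.12) and *Grin2c* (0.18). Without a mouse, *Grm3* ran from -0.1878 (without female 1) to 0.1102 (without female 3), and was 0.07501 without male 2. *Cacng7* ran from -0.1177 (without female 3) to 0.0607 (without male 2), with 0.03057, 0.04691 and 0.01036 without female 2, female 4 and male 1, and was 0.1309 in the first block alone and 0.008356 with coding transcripts alone. Of the shares (female minus male, percentage points), the type II TARP share turned to 0.6248 by CPM and ran from -2.061 (without male 4) to 0.5894 (without male 1), the *Gria2* share ran from -0.3661 (without female 3) to 1.663 without a mouse and was 2.042 by CPM and 2.543 from coding transcripts alone, and the *Grin2b* share from -1.155 (without male 2) to 5.313 without a mouse, with 4.478 by CPM and 10.65 from coding transcripts alone. The cause was not tested.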
